A study of Homo sapiens with 10 samples.

Results

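Ribosome biogenesis factors are the proteins that transcribe, cut, modify and assemble ribosomal RNA without remaining in the finished ribosome. A list of 58 of them was followed here in 786-O cells, an established human clear-cell renal carcinoma line that lacks functional VHL. The genes were chosen by name, by current symbol or older alias in the platform annotations, with earlier results of these data known. Of the 58, 52 had a probe set annotated to them alone, among 22432 genes measured in the series. NOP56, DKC1 and PPAN shared their probe sets with other genes, EBNA1BP2, GNL3 and DDX18 were not named by the annotations used here, and these 6 were not analysed here. By role, the 52 comprised 5 of 5 listed genes for RNA polymerase I and its initiation factor, 5 of 7 for small nucleolar ribonucleoprotein (snoRNP) core proteins, 5 of 5 for multifunctional nucleolar proteins, 22 of 22 for the small (40S) subunit and 15 of 19 for the large (60S) subunit.

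The study used 10 Affymetrix arrays in 5 groups of 2. One deposited table held 786-O cells carrying a scrambled hairpin, ZHX2 hairpin 44 or ZHX2 hairpin 45, where ZHX2 is a zinc-finger and homeobox transcription factor. Another held 786-O cells carrying a control shRNA or an shRNA that targets p65, which RELA encodes and which is a subunit of the transcription factor NF-kB. In all 5 groups the hairpins came by lentivirus, the cells were selected with puromycin at 2 ug/ml and grown in RPMI with serum, and total RNA of the whole culture was hybridised. No time after infection is stated in the labels, and p65 was targeted with a single shRNA. The labels do not say whether the arrays of a group came from separate cultures, so every p-value here reflects the spread among these arrays alone, and that spread may be technical. The number of arrays limits the precision.

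Ribosomes are made in the nucleolus, where RNA polymerase I transcribes the ribosomal DNA into a long precursor. Box C/D and box H/ACA snoRNPs methylate and pseudouridylate that precursor, and large assemblies of processing factors cut it and fold it into the precursors of the small and large subunits. The genes for these factors are known as targets of MYC, which binds the E-box CACGTG, and are known to run high in proliferating and tumour cells.

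The promoter letters of some of these genes are shown because the E-box, a sequence feature that the choice by name did not use, lay in many of them. Sequences are those of RefSeq for GRCh38.p14, which held a promoter of 250 bases before to 50 bases after the start for 44 of the 52 members. NOP58, NOLC1, MPHOSPH10, DDX52, RRP12, BOP1, RRS1 and RRP1B had none in the table. Where several promoters were listed for a gene, the first was used. The E-box CACGTG, which reads the same on both strands, lay in 17 of the 44 member promoters (38.6%), in 25 of 84 promoters of other genes of the pathway (29.8%) and in 1336 of 15543 promoters of all genes (8.6%). With every listed promoter counted, it lay in 20 of 51 for the members (39.2%) and 1753 of 21501 for all genes (8.15%). The 17 members were FBL, NOP10, UTP4, UTP14A, UTP20, WDR43, IMP4, RRP9, NOP14, NAT10, BYSL, LTV1, PNO1, PES1, NOP2, MRTO4 and NOC3L. In 13 of them a copy lay between 60 bases before and 30 bases after the start. The 6 printed first are those of the 13 with the smallest p in the mean ZHX2 comparison below. They were thus picked by their response, and the printed letters cannot show whether the E-box goes with it. Holders not printed include NOP10 and PES1, with smaller changes of 0.35 and 0.40. NSA2, on which a result below turns, is printed as 1 of the 27 members whose first listed promoter holds no copy. Those 27 also include LYAR, NOP16 and POLR1F, which are among the largest rises below. Each is 90 bases long and is written 5′ to 3′ on the gene's strand, with the E-box in capitals. The positions are chr2:68157828-68157917 on the plus strand for PNO1, chr2:28894607-28894696 on the plus strand for WDR43, chr12:101280045-101280134 on the plus strand for UTP20, chr19:39846350-39846439 on the minus strand for FBL, chr2:130342837-130342926 on the plus strand for IMP4, chr4:2963377-2963466 on the minus strand for NOP14 and chr5:74767189-74767278 on the plus strand for NSA2.
PNO1: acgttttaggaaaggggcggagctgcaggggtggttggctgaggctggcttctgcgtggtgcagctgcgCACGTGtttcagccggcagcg
WDR43: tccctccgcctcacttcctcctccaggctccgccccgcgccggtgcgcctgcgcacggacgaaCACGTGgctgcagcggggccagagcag
UTP20: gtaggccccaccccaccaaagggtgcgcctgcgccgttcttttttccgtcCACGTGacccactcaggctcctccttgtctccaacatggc
FBL: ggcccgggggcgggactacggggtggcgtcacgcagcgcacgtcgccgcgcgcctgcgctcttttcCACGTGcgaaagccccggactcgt
IMP4: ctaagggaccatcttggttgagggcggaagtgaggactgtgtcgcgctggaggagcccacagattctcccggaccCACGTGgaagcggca
NOP14: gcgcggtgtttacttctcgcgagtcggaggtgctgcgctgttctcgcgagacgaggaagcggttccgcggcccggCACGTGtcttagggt
NSA2: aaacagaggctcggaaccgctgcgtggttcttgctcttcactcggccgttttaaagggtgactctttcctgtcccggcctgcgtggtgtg

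The targeted genes and the identity of the cells were checked before the members. The ZHX2 signal was 10.58 and 10.43 with scrambled, 9.35 and 9.38 with hairpin 44 and then 8.93 and 9.02 with hairpin 45, in log2 units as are all signals below. That was a fall by 1.33 for the mean of both hairpins (adjusted p = 0.00105, limma, Benjamini-Hochberg over all genes). The RELA signal was 7.64 and 7.67 with control shRNA and 5.04 and 5.28 with p65 shRNA, a difference of -2.50 (adjusted p = 0.0733). With the ZHX2 hairpins RELA rose by 0.44 for the mean of both (limma adjusted p = 0.0112). Markers of the renal line (9 of 10 measured, among them PAX8, VIM and EPAS1) had a mean signal of 10.01 to 10.11 on the scrambled arrays and 9.71 to 9.90 on the hairpin arrays. Of these 9, KRT18 rose and PAX8, PAX2, CDH6 and NNMT fell with the hairpins. The mean signal of leukocyte markers (4 of 5) stayed between 4.69 and 4.84 and that of endothelial markers (5 of 5) between 5.49 and 5.62. Fibroblast markers (3 of 5) went from 5.94 and 5.96 with scrambled to between 5.43 and 5.53 with the hairpins. All 3 had a negative difference, and LUM was the 1 called lower for the mean of both hairpins. With hairpin 45 alone 2 of the 3 were called lower, where 7.11% of all genes were. In the p65 table the renal markers were at 7.10 and 7.07 with control shRNA and 6.72 and 6.95 with p65 shRNA. Of the 9, 5 lay lower and 2 higher on both p65 arrays, where 22.7% and 23.4% of all genes did. The leukocyte markers lay between 1.10 and 1.48, the endothelial between 1.36 and 1.46 and the fibroblast between 3.15 and 3.84. The part of these marker shifts in the results below was not tested. The arrays were loaded with RNA of whole cultures, so fewer cells and less RNA per cell cannot be told apart.

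With ZHX2 hairpins, 49 of the 52 members rose against scrambled and 0 fell, at an adjusted p under 0.05 in limma for the mean of both hairpins. Over all genes, 11.9% were called higher and 6.41% lower. Since the list was chosen with earlier results of these data known, the counts of members are a description. At an unadjusted p under 0.05, 51 members were higher and 0 lower, among 4273 higher and 2947 lower over all genes. The median change of the members was 0.67 log2 units, against a median of -0.0043 over all genes. All 4 hairpin arrays lay above both scrambled arrays for 51 of the 52 members and below them for 0, where 21.9% of all genes lay above and 16.4% below. NSA2 was the member whose arrays overlapped. Taken over the members, the median signal per array was 8.70 and 8.58 for scrambled, 9.27 and 9.23 for hairpin 44 and 9.50 and 9.48 for hairpin 45, while the median over all genes lay between 6.88 and 6.94. The 3 members not called were GAR1 at 0.22, NOC2L at 0.43 and NSA2 at -0.20. When each array was left out in turn, calls were fewest without scrambled replicate 2, for the members and over all genes. The median change of the members was then 0.63.

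**Figure D1:**
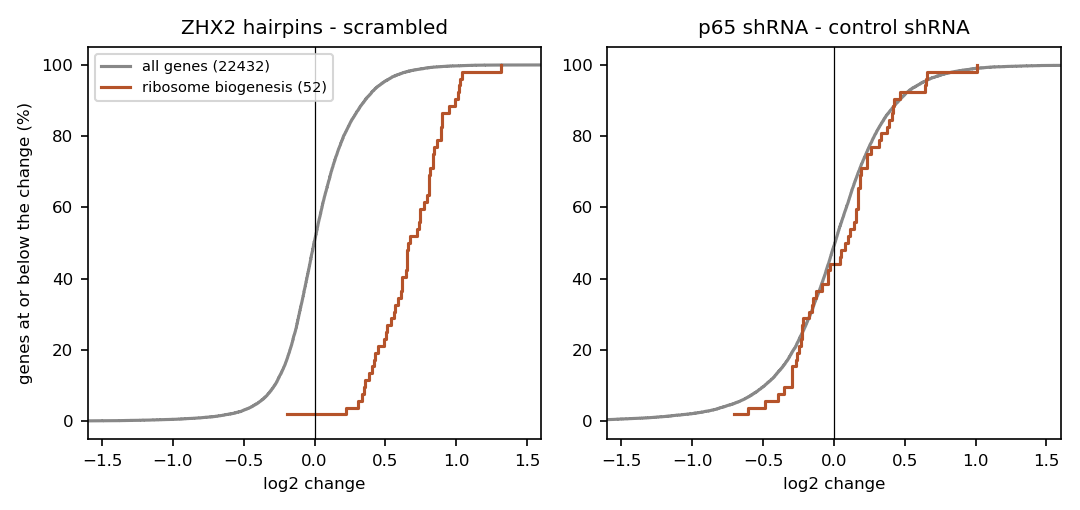
Cumulative share of genes (percent, vertical axis) at or below each log2 change (horizontal axis), for all 22432 genes in grey and the 52 ribosome biogenesis members in orange, with ZHX2 hairpins against scrambled on the left and p65 shRNA against control shRNA on the right. On the left the member curve runs to the right of the grey curve with a median of 0.67, and on the right the curves lie close together with a member median of 0.09.

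The counts by role here and in the paragraphs below are for the mean of both hairpins, where 11.9% of all genes were called higher. The genes of RNA polymerase I, which makes the ribosomal precursor, rose in 5 of 5 cases with a median change of 0.51. POLR1F, a subunit of the polymerase that contacts its initiation factor, had signals of 7.13 and 6.95 with scrambled, 8.06 and 8.20 for hairpin 44 and 8.0 and 7.96 for hairpin 45. Its arrays did not overlap, and the change was 1.01 (SE 0.0833, adjusted p = 0.00229). POLR1A, the largest catalytic subunit, was at 9.10 and 9.06 with scrambled, 9.57 and 9.56 for hairpin 44 and 9.63 and 9.54 for hairpin 45. All 4 hairpin arrays were higher, by 0.49 on average (SE 0.0643, adjusted p = 0.00667). RRN3, the initiation factor that brings the polymerase to its promoter, was at 8.97 and 8.88 with scrambled, 9.43 and 9.21 for hairpin 44 and 9.55 and 9.56 for hairpin 45. The change was 0.51 (SE 0.0843, adjusted p = 0.0125), with an adjusted p of 0.0735 without scrambled replicate 2. POLR1C, which serves RNA polymerase III as well, was at 7.38 and 7.35 with scrambled, 7.66 and 7.85 for hairpin 44 and 7.65 and 7.73 for hairpin 45. All 4 hairpin arrays lay above both scrambled arrays, and its change was 0.36 (SE 0.0803, adjusted p = 0.0317). The POLR1C call was lost without any array of the table except hairpin 44 replicate 1, with adjusted p up to 0.128. POLR1B, the other large catalytic subunit, rose by 0.64. With each hairpin by itself POLR1C did not pass in limma, at an adjusted p of 0.0629 for hairpin 44 and 0.0599 for hairpin 45.

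Of the snoRNP core proteins, 4 of 5 rose, where 11.9% of all genes were called higher, with a median change of 0.39. NOP58, a scaffold of box C/D particles, had signals of 10.04 and 9.95 with scrambled, 10.72 and 10.69 for hairpin 44 and 10.94 and 10.90 for hairpin 45. The 3 groups did not overlap, and the change was 0.81 (SE 0.0655, adjusted p = 0.0022). FBL, fibrillarin, is the methyltransferase of the same particles and carries the E-box printed above. Its signals were 9.98 and 9.99 with scrambled, 10.56 and 10.55 for hairpin 44 and 10.73 and 10.70 for hairpin 45. The 2 arrays of each group differed by far less than the groups did, and the change was 0.66 (SE 0.0603, adjusted p = 0.00284). The 3 measured proteins of box H/ACA particles had the smaller changes. NHP2 was at 8.96 and 8.94 with scrambled, 9.23 and 9.19 for hairpin 44 and 9.51 and 9.40 for hairpin 45. Its change was 0.39 (SE 0.0657, adjusted p = 0.0135), with adjusted p up to 0.0633 without scrambled replicate 2, hairpin 44 replicate 1 or hairpin 45 replicate 1. NOP10 rose by 0.35, a call that was kept only without scrambled replicate 1 when each array was left out in turn. GAR1 was at 7.50 and 7.36 with scrambled, 7.58 and 7.56 for hairpin 44 and 7.79 and 7.67 for hairpin 45. Its hairpin arrays also lay above both scrambled arrays, but the difference of 0.22 did not pass (SE 0.076, adjusted p = 0.103).

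The multifunctional nucleolar proteins rose in 5 of 5 cases, where 11.9% of all genes were called higher, with a median change of 0.81. LYAR, a nucleolar zinc-finger protein, had the largest change of all 52 members. Its signals were 7.10 and 6.89 with scrambled, 8.08 and 8.14 for hairpin 44 and 8.39 and 8.63 for hairpin 45. The 3 groups were in that order without overlap, and the mean change was 1.31 (SE 0.0997, adjusted p = 0.002). NOLC1, a chaperone of snoRNPs, was at 9.86 and 9.86 with scrambled, 10.74 and 10.78 for hairpin 44 and 10.57 and 10.57 for hairpin 45. Here hairpin 44 was the higher, and the mean change was 0.81 (SE 0.0608, adjusted p = 0.00198). DDX21, an RNA helicase that couples polymerase I transcription to rRNA processing, was at 9.70 and 9.56 with scrambled, 10.52 and 10.55 for hairpin 44 and 10.49 and 10.53 for hairpin 45. The hairpins gave nearly the same level, 0.89 above scrambled (SE 0.0703, adjusted p = 0.0021). NPM1, nucleophosmin, was at 8.57 and 8.29 with scrambled, 8.81 and 8.93 for hairpin 44 and 9.19 and 9.13 for hairpin 45. Its scrambled arrays were 0.199 apart in SD, the widest scrambled spread of this role group, and the change was 0.59 (SE 0.0987, adjusted p = 0.0131). NCL, nucleolin, rose by 0.45. Without scrambled replicate 2 the adjusted p was 0.0522 for NPM1 and 0.0548 for NCL.

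**Figure D2:**
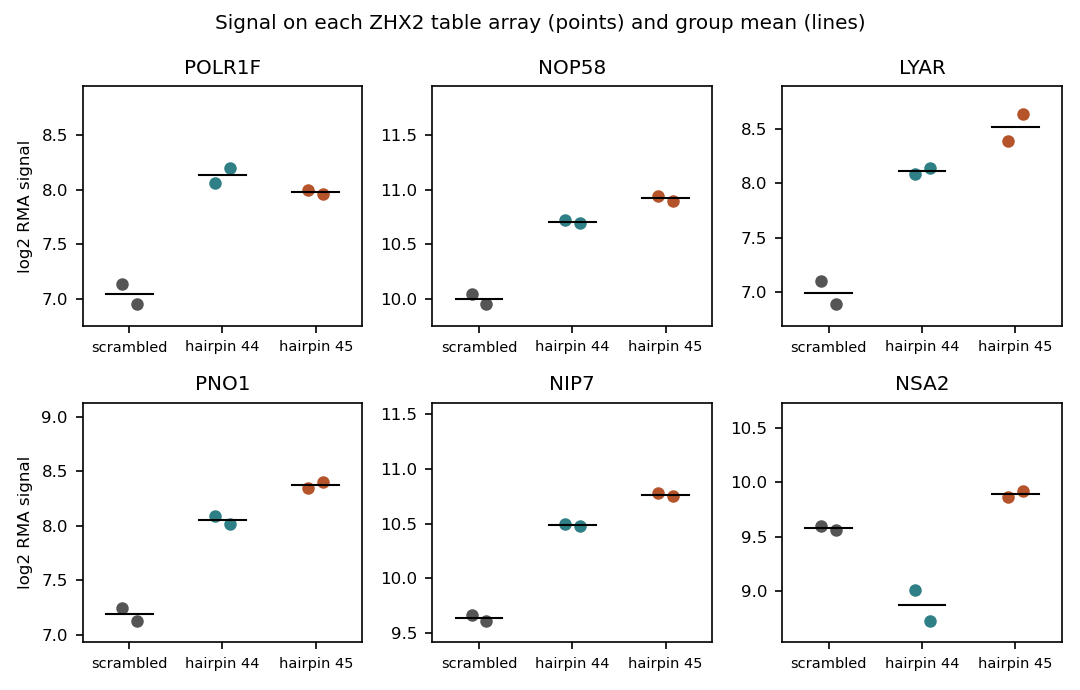
Log2 RMA signal (vertical axis) on each array of the ZHX2 table (points) with group means (lines) for 6 members, in the scrambled, hairpin 44 and hairpin 45 groups of 2 arrays. For POLR1F, NOP58, LYAR, PNO1 and NIP7 all 4 hairpin points lie above both scrambled points, whereas NSA2 is lower with hairpin 44, at 9.01 and 8.73, and at 9.86 and 9.92 with hairpin 45.

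All 22 factors of the small subunit rose, where 11.9% of all genes were called higher, with a median change of 0.65. PNO1 binds the endonuclease NOB1 and the precursor of the small-subunit rRNA. It had signals of 7.25 and 7.13 with scrambled, 8.09 and 8.02 for hairpin 44 and 8.35 and 8.40 for hairpin 45. The 3 groups were separate, and the change was 1.02 (SE 0.0709, adjusted p = 0.00178). LTV1, a late assembly factor, was at 8.10 and 8.08 with scrambled, 8.94 and 8.85 for hairpin 44 and 8.93 and 9.03 for hairpin 45. The hairpins overlapped each other but not scrambled, and the change was 0.85 (SE 0.0683, adjusted p = 0.00221). BYSL, bystin, was at 7.95 and 7.82 with scrambled, 8.60 and 8.65 for hairpin 44 and 8.82 and 8.81 for hairpin 45. Both hairpins were above scrambled and the change was 0.83 (SE 0.0702, adjusted p = 0.00236). DDX52, a helicase, had the largest p of the group, with signals of 9.34 and 9.21 with scrambled, 9.43 and 9.56 for hairpin 44 and 9.75 and 9.72 for hairpin 45. The lowest hairpin array was close to the highest scrambled array, and the change was 0.34 (SE 0.0759, adjusted p = 0.0314). The DDX52 call was lost with every array left out in turn except scrambled replicate 1, with adjusted p up to 0.13.

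The other small-subunit factors had changes between 0.42 and 0.90 and adjusted p between 0.00236 and 0.0216. The subunits that bind the start of the precursor rose by 0.81 for WDR43, 0.72 for UTP15, 0.61 for UTP4, 0.54 for WDR75 and 0.50 for HEATR1. Proteins of the U3 snoRNP and its partners rose by 0.65 for RRP9, 0.65 for IMP4 and 0.62 for MPHOSPH10. Further proteins of the early small-subunit particle rose by 0.90 for UTP20, 0.67 for NOP14 and 0.42 for NOC4L. The RNA-modifying enzymes NAT10, an acetyltransferase, and EMG1, a methyltransferase, rose by 0.65 and 0.61. Late and export-stage factors rose by 0.87 for TSR1, 0.74 for RRP12 and 0.56 for NOB1. UTP14A, which activates a helicase, rose by 0.81, and the helicase DDX10 by 0.57. Without scrambled replicate 2 the adjusted p was 0.0575 for WDR75, 0.0591 for NOC4L and 0.0918 for DDX10. NOC4L also lost its call without hairpin 45 replicate 1, and DDX10 without hairpin 44 replicate 2 or either hairpin 45 array. The calls of the other factors named in these sentences were kept without any array.

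Of the large-subunit factors 13 of 15 rose and 0 fell, where 11.9% of all genes were called higher and 6.41% lower. Their median change was 0.80. NIP7, which acts in precursor cutting, had the smallest p of all members. Its signals were 9.66 and 9.61 with scrambled, 10.50 and 10.48 for hairpin 44 and 10.78 and 10.75 for hairpin 45. The arrays of each group lay within 0.0338 SD and the groups did not overlap, with a change of 0.99 (SE 0.0616, adjusted p = 0.00136). RRP1B was at 8.81 and 8.93 with scrambled, 9.87 and 9.94 for hairpin 44 and 9.74 and 9.73 for hairpin 45. Hairpin 44 was the higher, and the mean change was 0.95 (SE 0.0687, adjusted p = 0.00186). RRS1, which brings the 5S particle into the large subunit, was at 8.29 and 8.47 with scrambled, 9.31 and 9.32 for hairpin 44 and 9.51 and 9.48 for hairpin 45. The change was 1.02 without overlap (SE 0.0749, adjusted p = 0.0019). The remaining called members rose by 1.04 for NOP16, 0.90 for RRP15, 0.89 for the rRNA methyltransferase NOP2, 0.83 for BRIX1, 0.80 for the GTPase GTPBP4, 0.77 for NOC3L and 0.74 for MRTO4. BOP1, PES1 and WDR12 form a complex together, and their changes were 0.75, 0.40 and 0.31. The calls of PES1 and WDR12 depended on the arrays used. PES1 was kept only without scrambled replicate 1, and WDR12 was lost without any array, with adjusted p between 0.0626 and 0.0792. NOC2L, a partner of NOC3L, had a difference of 0.43 (SE 0.123, adjusted p = 0.0648) with scrambled arrays at 6.69 and 6.31, and it passed with an adjusted p of 0.0319 without scrambled replicate 1.

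NSA2, a large-subunit assembly factor, was the member whose differences had opposite signs with the 2 hairpins. Its signals were 9.6 and 9.56 with scrambled, 9.01 and 8.73 for hairpin 44 and 9.86 and 9.92 for hairpin 45. Both hairpin 44 arrays were below, and both hairpin 45 arrays above, the scrambled arrays. Against scrambled it fell by 0.71 with hairpin 44 (SE 0.108, adjusted p = 0.0216), and the difference with hairpin 45 was 0.31 (adjusted p = 0.1). Hairpin 45 was higher than hairpin 44 by 1.02 (SE 0.108, adjusted p = 0.0337). Both calls were lost when any array was left out and when only the groups compared were fitted, with adjusted p between 0.109 and 0.261 for the difference between the hairpins, which itself ran from 0.88 to 1.16.

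Each hairpin was also set against scrambled by itself, and these comparisons share the 2 scrambled arrays. With hairpin 44, 40 members rose and NSA2 fell, where 4.81% of all genes were called higher and 2.84% lower. With hairpin 45, 47 members rose and 0 fell, at an unadjusted p under 0.05 also 0, where 13% of all genes were called higher and 7.11% lower. By role, hairpin 44 alone called higher 2 of 5 polymerase I genes, 3 of 5 snoRNP proteins and 4 of 5 multifunctional proteins. It also called 20 of 22 small-subunit and 11 of 15 large-subunit factors higher. For hairpin 45 alone these counts were 4 of 5, 4 of 5, 5 of 5, 22 of 22 and 12 of 15. The median change was 0.64 with hairpin 44 and 0.74 with hairpin 45. All 40 members higher with hairpin 44 were also called with hairpin 45, and 7 were called with hairpin 45 alone, namely POLR1B, RRN3, NHP2, NPM1, DDX10, DDX52 and WDR12. The other 5, POLR1C, GAR1, PES1, NSA2 and NOC2L, were called higher with neither hairpin. POLR1C and PES1 thus passed only for the mean of both. This overlap was not counted over all genes, and the comparisons share scrambled arrays and 1 estimate of the spread, so it is a description. The hairpin 44 count rested on few arrays. With only the groups compared, 25 members were higher, where 1.35% of all genes were. With an array left out, fewer members and fewer of all genes were called. Without either hairpin 44 array the members lost their calls, and so did nearly all genes. The median change of the members with hairpin 44 stayed between 0.55 and 0.69 with an array left out. For hairpin 45, 45 members were higher with only the groups compared, where 9.21% of all genes were. Its calls were fewest, for the members and over all genes, without a hairpin 45 array. Its median change stayed between 0.69 and 0.83 with an array left out.

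Set directly against each other, hairpin 45 was higher than hairpin 44 for 41 of the 52 members by sign, with a median difference of 0.16. Over all genes, 50.7% were positive and the median was 0.0025. NSA2 was the 1 member called higher and 0 were called lower in limma, where 0.129% of all genes were called higher and 0.267% lower. At an unadjusted p under 0.05, 15 members were higher and 1, NOLC1, was lower, among 1872 higher and 1513 lower over all genes. With an intensity trend in the moderation, 8 were called higher and NOLC1 lower, where 4.11% of all genes were called higher and 2.43% lower. Both hairpin 45 arrays lay above both hairpin 44 arrays for 38 members and below them for 6, where 26.9% of all genes lay above and 23.5% below. After NSA2, the smallest p belonged to PNO1 at 0.32 (SE 0.0819, adjusted p = 0.189) and NIP7 at 0.28 (SE 0.0712, adjusted p = 0.189), whose signals are given above. The ZHX2 signal itself was 0.39 lower with hairpin 45 than with hairpin 44 on the log2 scale, a difference that did not pass (adjusted p = 0.152).

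**Figure D3:**
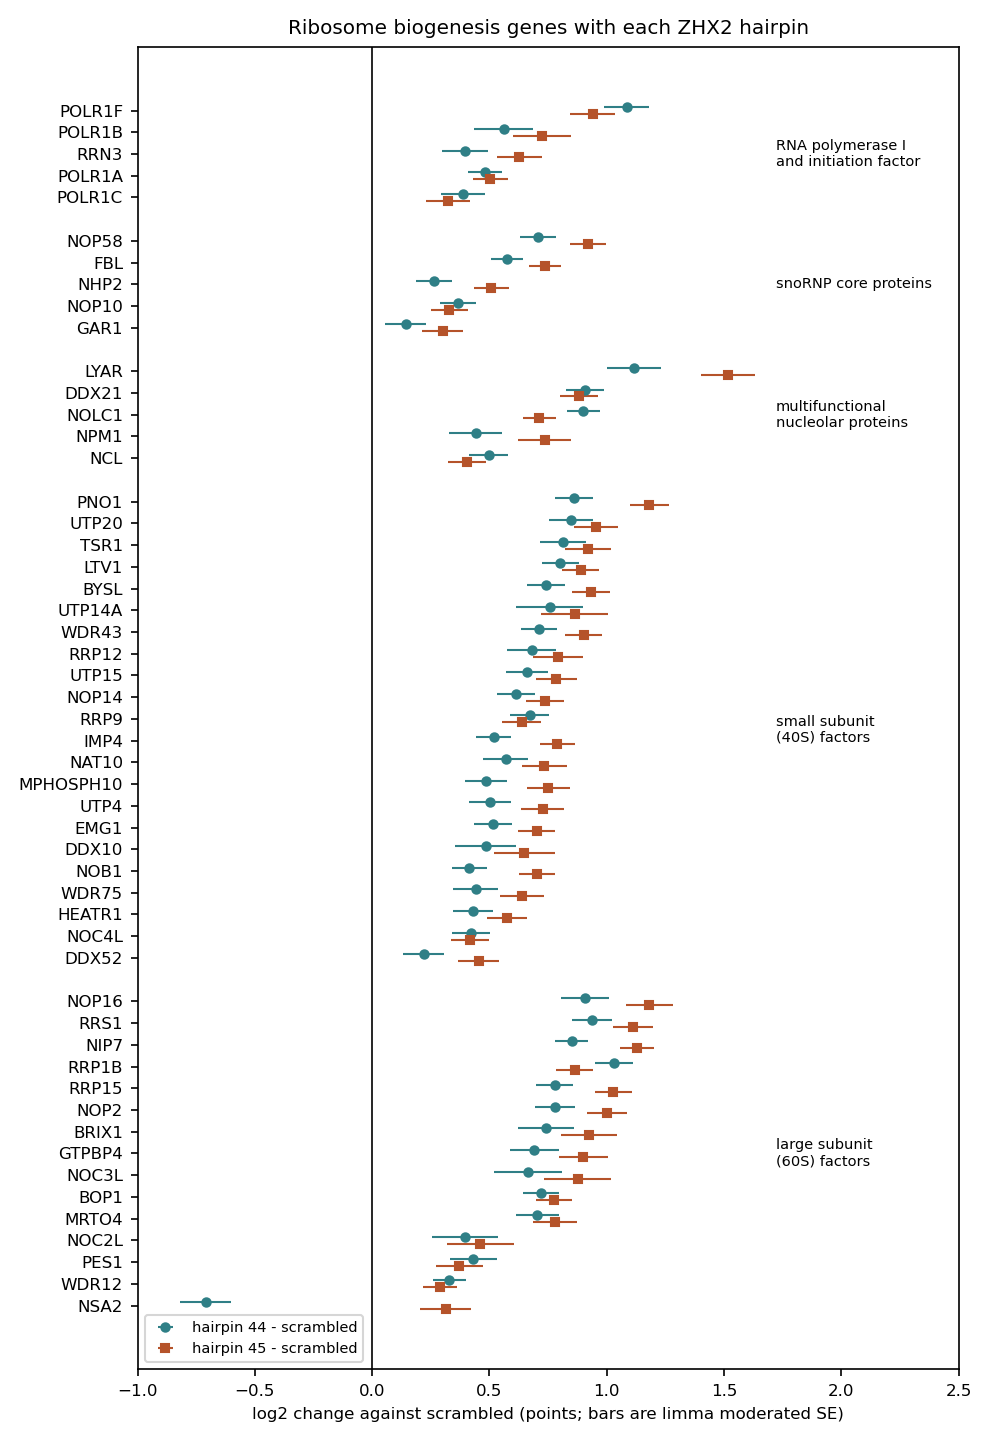
Log2 change against scrambled (horizontal axis) for each of the 52 members, grouped by role, with hairpin 44 as circles and hairpin 45 as squares and bars of 1 limma moderated standard error, 2 arrays a group. Every point lies to the right of 0 except NSA2 with hairpin 44 at -0.71, and LYAR reaches 1.11 and 1.52.

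Most genes of the same pathway outside the list also rose with the ZHX2 hairpins. They come from further lists by role, written with earlier results of these data known, so their counts are a description. For the mean of both hairpins, 6 of 11 other genes of polymerase I and rDNA transcription rose (median 0.42), as did 27 of 33 other small-subunit factors (median 0.50), 34 of 38 other large-subunit factors (median 0.48) and 10 of 13 genes of the RNA exosome, which trims rRNA precursors (median 0.48). In each of these 4 lists 0 genes fell, also at an unadjusted p under 0.05. Over all genes 11.9% were called higher and 6.41% lower, as above. TCOF1, treacle, which recruits factors to ribosomal DNA, rose by 0.80, and the polymerase I subunit POLR1E by 0.93. UBTF, the factor that marks active ribosomal genes, was at 0.03 (adjusted p = 0.769). UTP11 rose by 0.77 and ESF1 by 0.77 in the small-subunit list. PAK1IP1 rose by 0.90 and SDAD1 by 0.83 in the large-subunit list. The exosome subunit EXOSC2 and the nuclease DIS3 rose by 0.82 and 0.77.

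With p65 shRNA, 0 of the 52 members passed the test in limma, and 0% of all 22432 genes did. The targeted gene RELA, at -2.50, did not pass either (adjusted p = 0.0733), so the lack of calls does not show a lack of change. At an unadjusted p under 0.05, 3 members were higher (POLR1F, RRS1 and POLR1C) and 2 lower (UTP20 and UTP4), among 1433 higher and 1783 lower over all genes. With an intensity trend, the alternative that made calls in this table, 1 member was higher (POLR1F, adjusted p = 0.0233) and 2 lower (UTP20, adjusted p = 0.029, and UTP4, adjusted p = 0.0358). That setting called 1.37% of all genes higher and 2.49% lower, shares near those of the members. The median change of the members was 0.09, with 29 positive and 23 negative, where 50.8% of all genes were positive with a median of 0.0069. Both p65 arrays lay above both control arrays for 21 members and below them for 13, where 23.4% of all genes lay above and 22.7% below.

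POLR1F had signals of 5.64 and 5.71 with control shRNA and 6.89 and 6.47 with p65 shRNA. The groups were apart, with a difference of 1.01 (SE 0.208, adjusted p = 0.144). UTP20, a large scaffold protein of the early small-subunit particle, was at 7.06 and 7.19 with control shRNA and 6.39 and 6.44 with p65 shRNA. It was lower on both p65 arrays, with a difference of -0.71 (SE 0.168, adjusted p = 0.179). RRS1 was at 6.43 and 6.55 with control shRNA and 7.26 and 7.03 with p65 shRNA, a difference of 0.65 (SE 0.182, adjusted p = 0.222). POLR1C was at 4.46 and 4.72 with control shRNA and 5.44 and 5.05 with p65 shRNA, a difference of 0.65 (SE 0.218, adjusted p = 0.284). Both genes were higher on both p65 arrays. All 5 members for RNA polymerase I had a positive difference, with a median of 0.64 and RRN3 the one whose arrays overlapped. The other genes of polymerase I and rDNA transcription did not share that sign, with 4 of 11 positive, 7 negative and a median of -0.0089. The medians were 0.14 for the snoRNP proteins, 0.08 for the multifunctional proteins, -0.04 for the small-subunit factors and -0.08 for the large-subunit factors.

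**Figure D4:**
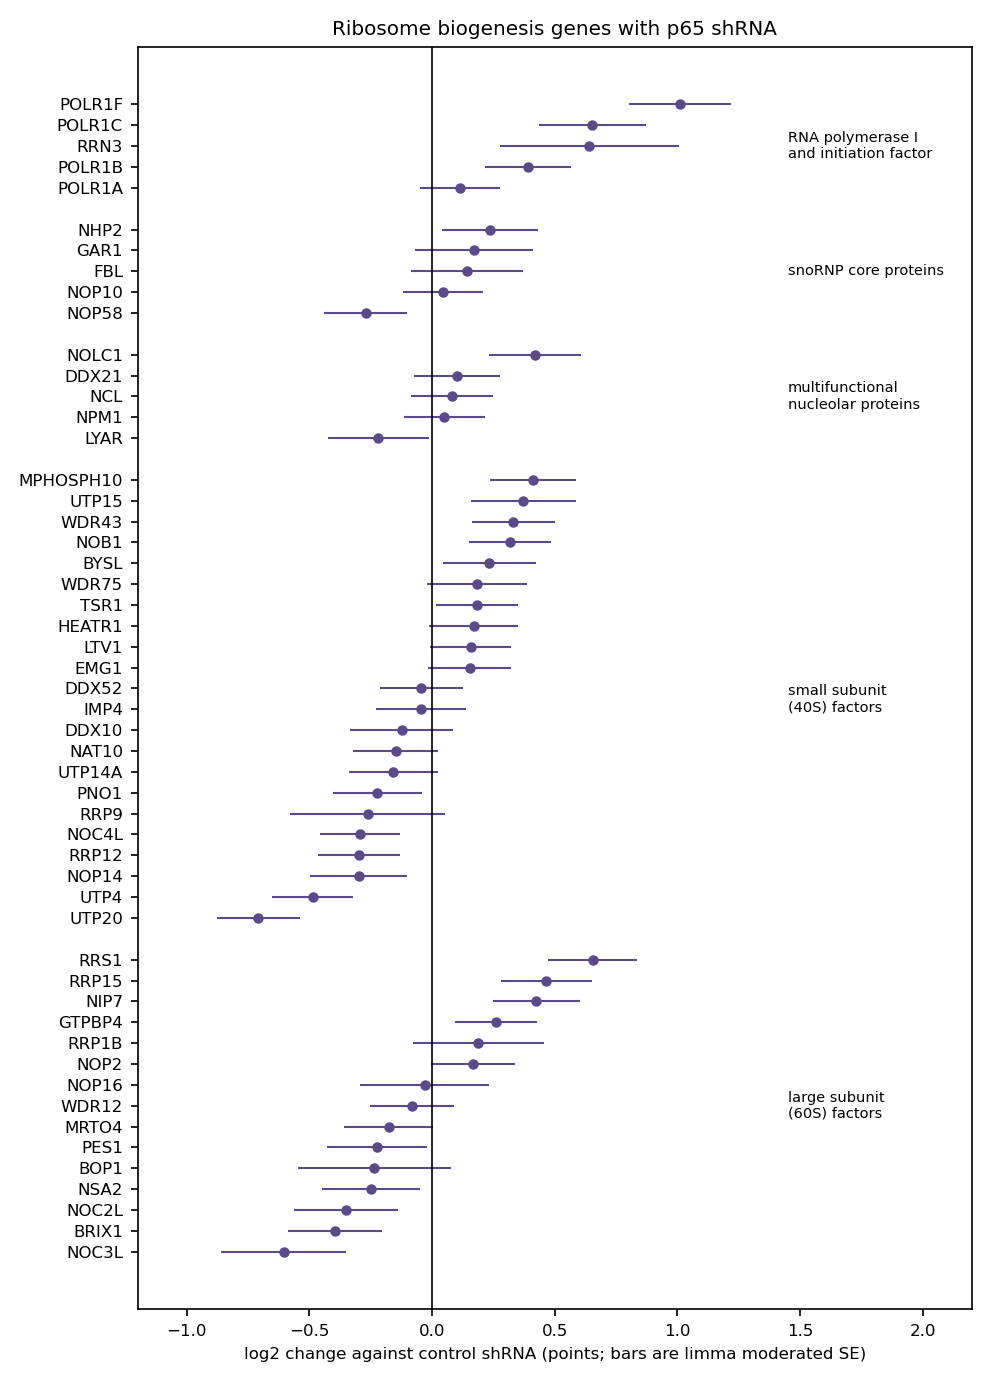
Log2 change with p65 shRNA against control shRNA (horizontal axis) for the 52 members by role, with bars of 1 limma moderated standard error, 2 arrays a group. Points lie on both sides of 0, 29 above and 23 below, from UTP20 at -0.71 to POLR1F at 1.01.

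Between the tables, which share no arrays, 29 members were positive in both, 22 were positive with the ZHX2 hairpins and negative with p65 shRNA, and NSA2 was negative in both. Since 51 of the 52 members were positive with the ZHX2 hairpins, these counts restate the signs with p65 shRNA. There 55.8% of the members and 50.8% of all genes were positive. LYAR, at 1.31 with the ZHX2 hairpins, was at -0.22 with p65 shRNA (adjusted p = 0.688), and PNO1, at 1.02, was at -0.22 (adjusted p = 0.634). The difference between the ZHX2 and p65 effects was not tested, since the tables come from different platforms. The spread was also wider in the p65 table. Over all genes, replicate arrays of a group differed with an SD of 0.427 and 0.4 there and between 0.197 and 0.239 in the ZHX2 table. The tables also lay on different scales. The median over all probe sets was 1.87 to 1.89 in the p65 table, with 13 to 20 values below 0 on each array. In the ZHX2 table it was 6.15 to 6.22, with 0 values below 0. The part of low signals in the wider spread was not tested.

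Returning to the promoters, members with an E-box had a median ZHX2 change of 0.74 (17 genes) and members without it 0.57 (27 genes). This is a description without a test, by the first listed promoter of each gene. Its holders ran from NOP10 at 0.35 to PNO1 at 1.02, and the members without it from NSA2 at -0.20 to LYAR at 1.31, so both the lowest and the highest changes were among those without it. The median GC content of the member promoters was 60.3%, against 62.3% over all promoters.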

How the data were processed

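Gene expression was measured on 6 arrays of the ZHX2 table and 4 of the p65 table. The deposited values are log2 signals made with RMA, per the submitters' processing notes, with the version and build not given in the sources used here. Both tables held the same 53617 probe sets. Names came from both platform annotations, updated through RefSeq (GRCh38.p14), which gave 24480 probe sets with 1 gene, 1842 with several, 99 with different genes and 27196 with none. The probe set with the highest mean over the table's arrays stood for a gene (1103 of 22432 genes had several). No detection measure was used, so no gene was called absent, and no level was compared between probe sets or tables.

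The sample titles gave the groups and the replicate numbers. Each table was fitted with limma 3.58.1 in R 4.3.3 by group means and empirical Bayes moderation, with 3 and 2 residual degrees of freedom. Calls used a Benjamini-Hochberg adjusted p under 0.05 over all genes. Standard errors are moderated. The fit was tested on simulated data.

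The members and lists were chosen with earlier results of these data known. Every measured member is named. Signals on every array are given for the 3 members of each role with the smallest p and the 1 with the largest in the mean ZHX2 comparison, the 3 with the smallest p between hairpins, and the 4 with the smallest p for p65. From each further pathway list the 2 genes with the smallest p are named. UBTF was added after its values were seen. The alternatives changed the moderation (intensity trend, robust), the scaling (quantile normalization, median centring), the filter (40th percentile of signal), the probe set (mean of all), the arrays (each left out, or just the groups compared) and the design (replicate number as a block). Motifs were searched on both strands, in the first promoter listed for a gene unless stated.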

Additional observations from a re-analysis of the deposited data

Results flagged for a closer look

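NSA2, a large-subunit assembly factor, differed between the hairpins against the same gene. Hairpin 45 was higher than hairpin 44 by 1.02 log2 units (SE 0.108, limma adjusted p = 0.0337). Its signals were 9.6 and 9.56 with scrambled, 9.01 and 8.73 with hairpin 44, and 9.86 and 9.92 with hairpin 45. A single probe set measures it. With only 2 arrays a group, the adjusted p was between 0.109 and 0.261 when any array was left out. With p65 shRNA it was at -0.25 (adjusted p = 0.628).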

How the results depend on the processing

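For the mean of both hairpins, members called higher stayed between 48 and 50 under the alternatives that kept all arrays, with 0 lower in each. Over all genes, the share called higher there ran from 9.41% with quantile normalization to 20.9% with the filter. With an array left out, fewer members and fewer of all genes were called, fewest of both without scrambled replicate 2. The median change of the members was 0.61 with quantile normalization and 0.63 to 0.77 with an array left out. The higher share of all calls was 64.9% as reported, 53.2% with quantile normalization and 73% with median centring, and all-gene medians moved by under 0.1. For hairpin 44, 25 members were higher and 0 lower with only the groups compared, where 1.35% of all genes were higher and 1.21% lower. With an array left out, 0 to 28 were higher, 0 lower, and the median was 0.55 to 0.69. For hairpin 45, the median was 0.80 with median centring, 0.65 with quantile normalization and 0.69 to 0.83 with an array left out, when 30 to 48 members were higher. Hairpin 45 over hairpin 44 gave 8 higher and 1 lower with an intensity trend, and 0 higher with only the groups compared or with any array left out. For p65, an intensity trend gave 1 higher and 2 lower. The replicate numbers did not pair the arrays (correlations of -0.03 to 0.05). With the replicate block the mean count was 49 (9.66% of all genes higher) and hairpin 44 gave 29 (2.08%). Hairpin 45 gave 46 (10.8%), and hairpin 45 over hairpin 44 gave 0 (0.00892%). The cause of these shifts was not tested. The calls of POLR1C, RRN3, NHP2, NOP10, NCL, NPM1, WDR75, NOC4L, DDX10, DDX52, PES1 and WDR12 were lost under at least 1 alternative in the mean comparison, and no called value changed sign. Differences that were not called did change sign with an array left out, among them FBL, RRP9 and RRP1B with p65 shRNA and POLR1C between the hairpins.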

Other observations

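Other motifs were common in the member promoters, without a test. The ETS core CCGGAAG lay in 20 of 44 (45.5%), against 41.7% of promoters of other pathway genes and 13.7% of all promoters. The motif TCGCGAGA lay in 5 (11.4%), against 5.95% and 1.65%, and NOP14 held it at 2 separate places, in 1 of them on both strands. The E2F motif TTTNNCGC lay in 6 (13.6%), against 15.5% and 8.49%. The partial kappa-B motif GGGNNTTTC, the element family that p65 binds, lay in 4 (9.09%), against 2.38% and 4.84%, and the 4 were RRN3, FBL, PES1 and GTPBP4. With p65 shRNA these 4 were at 0.64, 0.14, -0.22 and 0.26, and none passed the test. No motif contains the letters of another in full, and a match is not a site.

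POLR1A and BOP1 each had 2 probe sets. With the ZHX2 hairpins they gave 0.49 and 0.54 for POLR1A and 0.75 and 0.59 for BOP1, so the direction did not depend on the choice. With p65 shRNA they gave 0.11 and 0.41 for POLR1A and -0.24 and -0.62 for BOP1, the one used first. The BOP1 probe set not used had an unadjusted limma p of 0.0123 (adjusted p = 0.219). The p65 count at an unadjusted p under 0.05 thus depended on the choice.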
